A study of Homo sapiens with 24 samples.

Results

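FGF21, GDF15, VEGFA, STC2 and ADM2 encode secreted factors that stressed cells are known to release. Their mRNA levels were followed here in a human hepatoma line treated with silymarin. The arrays read RNA, so protein and its secretion were not measured. The 5 genes were chosen by name, with earlier results of these data known, and all 5 were among the 18274 genes measured. Each was read by 1 probe set. Their level was set beside DDIT3 and ASNS, a pair of genes of the same stress response. Cells were Huh7.5.1, an established hepatoma line, and every sample title carries the word novirus. They were given silymarin, a flavonolignan mixture made from milk thistle, or the solvent DMSO alone. The arrays labelled silymarin numbered 4 at 4 h, 3 at 8 h and 3 at 24 h, against 4, 5 and 5 labelled DMSO at the same times. The dose of silymarin is not in the sources used here. Values are log2 expression from Affymetrix Human Gene 1.0 ST arrays, normalized by the authors with RMA, so a difference of 1 stands for a 2-fold change. Levels of different genes come from different probes and were not compared with each other.

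The integrated stress response is a pathway in which kinases phosphorylate the initiation factor eIF2, general translation slows, and the transcription factor ATF4 is made instead. ATF4 raises genes for amino acid supply such as ASNS, which makes asparagine, and transcription factors such as DDIT3, also called CHOP. It also raises secreted proteins through which a stressed cell can signal to other tissues. FGF21 is a fasting and stress hormone of the liver that acts through FGF receptors and the co-receptor KLB. GDF15 acts on the hindbrain receptor GFRAL and lowers appetite. VEGFA drives growth of blood vessels. STC2, or stanniocalcin 2, restrains the protease PAPPA, which frees insulin-like growth factor. ADM2, also called intermedin, is a peptide of the adrenomedullin family that acts through CALCRL and its RAMP partners.

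The DNA just upstream of the start is shown for 4 of these genes and for ASNS. VEGFA had no entry in the promoter set used. The searched motif is the core of the ATF4 and C/EBP composite element, written TGATGNAA, on either strand. It lies in 3.14% of the 35116 promoters of 250 bases in the RefSeq table (GRCh38.p14). FGF21 held a match, reading TTGCATCA on the gene's strand, with its first base 54 bases before the start. ASNS held a match reading TGATGAAA, 68 bases before one of its 2 listed starts, and none before the other. DDIT3, with 2 listed starts, and DDIT4 had no match in 250 bases. GDF15, STC2 and ADM2 had no match in these 250 bases. A match is a run of letters and does not show a bound site, and no match covers only these letters in this window. The sequences are the 100 bases before the start, 5′ to 3′ on the strand of the gene, with a motif match in capitals. FGF21 is at chr19:48755424-48755523 on the plus strand, GDF15 at chr19:18386058-18386157 on the plus strand and STC2 at chr5:173328415-173328514 on the minus strand. ADM2 is at chr22:50481443-50481542 on the plus strand and ASNS at chr7:97872409-97872508 on the minus strand.
FGF21: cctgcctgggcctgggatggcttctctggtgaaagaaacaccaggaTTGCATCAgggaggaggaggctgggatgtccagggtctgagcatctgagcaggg
ASNS: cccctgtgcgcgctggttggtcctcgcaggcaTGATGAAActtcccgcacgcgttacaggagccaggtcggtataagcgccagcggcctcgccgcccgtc
GDF15: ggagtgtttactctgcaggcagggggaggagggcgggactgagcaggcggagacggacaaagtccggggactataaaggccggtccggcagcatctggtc
STC2: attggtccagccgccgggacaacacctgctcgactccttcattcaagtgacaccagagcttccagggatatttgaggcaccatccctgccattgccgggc
ADM2: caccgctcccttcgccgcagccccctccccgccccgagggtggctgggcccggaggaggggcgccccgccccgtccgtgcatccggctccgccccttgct

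The arrays fell into separate clusters by their stress level, and the labels did not sort them. DDIT4, a stress-induced brake on the growth kinase mTOR, was between 9.67 and 10.34 in 10 arrays and between 7.503 and 8.35 in the other 14. The 10 high arrays comprised 1 of 4 silymarin and 2 of 4 DMSO arrays at 4 h, 2 of 3 and 3 of 5 at 8 h, and 1 of 3 and 1 of 5 at 24 h. These clusters are not groups of the study, so no mean or test was made between them. All 10 measured hepatocyte markers had means of at least 11.44, and array medians lay between 7.04 and 7.18. In bulk RNA, fewer cells of a type and less RNA per cell cannot be told apart. Lists of 8 endothelial, 8 macrophage and leukocyte, 8 fibroblast and stellate and 6 cholangiocyte markers had 0 calls at any time, as did all genes. Some of these markers were high in this line. The highest gene mean was 12.29 in the macrophage and leukocyte list and 10.40 in the cholangiocyte list. The largest median difference among the lists was 0.11, for the endothelial list at 24 h, where 7 of 8 markers lay above 0, and its part in the results was not tested. The labels do not state whether replicates are separate cultures, and p-values therefore measure a spread between samples that may be technical.

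STC2 was the member that varied most over the arrays, and FGF21 varied least. The members were chosen with earlier results of these data known, so their SD ranks are a description and not a test. The SD over 24 arrays was 0.70 for STC2, which ranked 16 among 18274 genes. It was 0.47 for GDF15 (rank 97), 0.21 for ADM2 (rank 1589) and 0.17 for VEGFA (rank 3718). FGF21 had an SD of 0.10, under the median of 0.13 over all genes, and 19.5% of genes had a smaller one. For comparison the SD was 0.68 for ASNS, 0.55 for DDIT3 and 1.14 for DDIT4. FGF21 was also the member that did not pass a filter on low values, since every group mean lay under 6.27, the lowest quartile of gene means. The other 4 members passed it. In RefSeq (GRCh38.p14) FGF21 is at chr19:48755524-48758330, GDF15 at chr19:18386158-18389176, VEGFA at chr6:43770211-43786487, STC2 at chr5:173314723-173328414 and ADM2 at chr22:50481543-50486437.

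**Figure D1:**
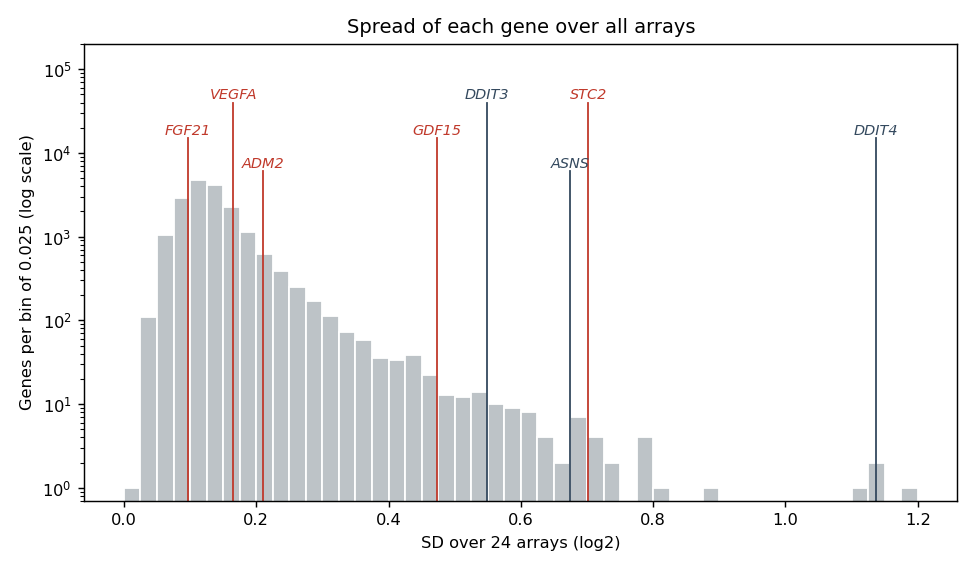
Number of genes (log axis) by their SD over all 24 arrays, in bins of 0.025 on the log2 scale, with vertical lines at the members (red) and at DDIT3, ASNS and DDIT4 (dark). STC2 at 0.70 and GDF15 at 0.47 lie far out in the upper tail, and FGF21 at 0.10 lies under the median of 0.13 over all genes.

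The comparison of silymarin with DMSO asked whether the extract changed the mRNA of these factors at 4, 8 or 24 h. None of the 5 genes passed at any time, and silymarin and DMSO arrays overlapped for all of them. limma, fitted to all genes, called 0 of 5 members at each time, at an adjusted p under 0.05, which is the background of 0% called among 18274 genes. At an unadjusted p under 0.05 limma found 0 of 5 members at each time, against 2.48% of genes at 4 h, 3.93% at 8 h and 3.03% at 24 h. Groups did not overlap for 0 of 5 members at each time, against 2.18%, 2.93% and 1.95% of genes at the same times. Differences above 0 were found for 2, 2 and 4 of the 5 members at 4, 8 and 24 h, against 47.5%, 42% and 56% of genes. The median difference of the members was -0.0025, -0.03 and 0.12 on the log2 scale, beside -0.01, -0.02 and 0.01 over all genes.

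STC2, the stanniocalcin that inhibits PAPPA, was 9.72, 8.53, 8.81 and 8.40 in the silymarin arrays at 4 h, against 9.62, 8.32, 8.28 and 9.75 in the DMSO arrays. In both labels some arrays were high and others low, with nothing between 8.81 and 9.62. At 8 h STC2 was 9.75, 8.37 and 9.71 in silymarin, against 9.57, 8.46, 8.06, 9.89 and 10.01 in DMSO. At 24 h it was 9.85, 8.67 and 8.95 in silymarin, against 8.19, 8.79, 9.93, 8.12 and 8.45 in DMSO. At 24 h a single array of each label was high, replicate 1 in silymarin and replicate 3 in DMSO. The difference was -0.13 (SE 0.47) at 4 h, 0.08 (SE 0.49) at 8 h and 0.46 (SE 0.49) at 24 h, where its 95% interval ran from -0.55 to 1.48. limma's adjusted p was at least 0.994 at each time. Without the 10 high-DDIT4 arrays, an alternative added after seeing the data, the difference was 0.28 (SE 0.18) at 4 h, 0.11 (SE 0.24) at 8 h and 0.42 (SE 0.17) at 24 h. The lowest adjusted p from limma was 0.895. That fit left 1 silymarin array at 8 h, which is assumed to vary like the other groups.

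GDF15, the appetite-lowering cytokine, was 11.68, 11, 10.90 and 10.84 in silymarin at 4 h, against 10.80, 10.76, 10.30 and 11.70 in DMSO. At 8 h it was 11.76, 10.80 and 11.52 in silymarin, against 10.88, 10.77, 10.95, 11.15 and 11.66 in DMSO. At 24 h it was 11.81, 10.89 and 10.78 in silymarin, against 10.26, 10.75, 11.86, 10.62 and 10.90 in DMSO. The highest arrays came from both labels at every time, and the lowest value of all was DMSO replicate 1 at 24 h. GDF15 had a positive difference at each time, 0.22 (SE 0.32) at 4 h, 0.28 (SE 0.33) at 8 h and 0.29 (SE 0.33) at 24 h, each smaller than its SE. Leaving out 1 array moved it from 0.02 (without DMSO replicate 3) to 0.49 (without DMSO replicate 4) at 4 h, and from 0.077 (without silymarin replicate 1) to 0.56 (without silymarin replicate 2) at 8 h. At 24 h it was -0.038 without silymarin replicate 1 and 0.53 without DMSO replicate 3. limma's adjusted p was at least 0.991. Without the 10 high-DDIT4 arrays the differences were 0.39 (SE 0.16), -0.06 (SE 0.22) and 0.21 (SE 0.15) at 4, 8 and 24 h, none of which passed.

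VEGFA, the vascular growth factor, moved over a narrower range. It was 10.12, 9.89, 9.97 and 9.75 in silymarin at 4 h, against 9.93, 9.69, 9.77 and 10.01 in DMSO. At 8 h it was 10.07, 9.76 and 9.98 in silymarin, against 10.14, 9.69, 9.77, 10.22 and 10.21 in DMSO. At 24 h it was 10.06, 9.88 and 9.95 in silymarin, against 9.75, 9.91, 10.10, 9.80 and 9.75 in DMSO. The widest spread within a group was in DMSO at 8 h, with an SD of 0.25. The difference was 0.08 (SE 0.12) at 4 h, -0.07 (SE 0.12) at 8 h and 0.10 (SE 0.12) at 24 h. The 95% intervals lay between -0.32 and 0.35 on the log2 scale over the 3 times, and limma's adjusted p was at least 0.992.

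ADM2, the adrenomedullin-related peptide, followed the same arrays. It was 8.76, 8.36, 8.41 and 8.25 in silymarin at 4 h, against 8.65, 8.20, 8.26 and 8.67 in DMSO. At 8 h it was 8.70, 8.35 and 8.80 in silymarin, against 8.69, 8.50, 8.44, 8.95 and 8.78 in DMSO. At 24 h it was 8.86, 8.55 and 8.35 in silymarin, against 8.35, 8.62, 8.57, 8.41 and 8.37 in DMSO. DMSO replicate 3 at 24 h, high for STC2 and GDF15, was below DMSO replicate 2 for ADM2. The difference was -0.0025 (SE 0.14) at 4 h, -0.06 (SE 0.14) at 8 h and 0.12 (SE 0.14) at 24 h. The lowest adjusted p from limma was 0.993.

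FGF21, the liver hormone, stayed close to 1 level in every group. It was 6.02, 6.07, 5.99 and 6.14 in silymarin at 4 h, against 6.28, 6.001, 6.18 and 6.07 in DMSO. At 8 h it was 5.997, 6.09 and 6.28 in silymarin, against 6.10, 6.22, 6.32, 6.05 and 6.05 in DMSO. At 24 h it was 6.17, 6.15 and 6.04 in silymarin, against 6.10, 6.25, 6.09, 6.04 and 6.12 in DMSO. The whole range over 24 arrays was 0.33, and the highest array, DMSO replicate 3 at 8 h, was the lowest of all arrays for STC2, ASNS and DDIT4. The difference was -0.08 (SE 0.08) at 4 h, -0.03 (SE 0.08) at 8 h and -0.0005 (SE 0.08) at 24 h. Its 95% intervals lay between -0.24 and 0.16 over the 3 times, and limma's adjusted p was at least 0.993. The values are dim and no detection call was used here, so a change in a transcript below the reach of the probes could not be seen.

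**Figure D2:**
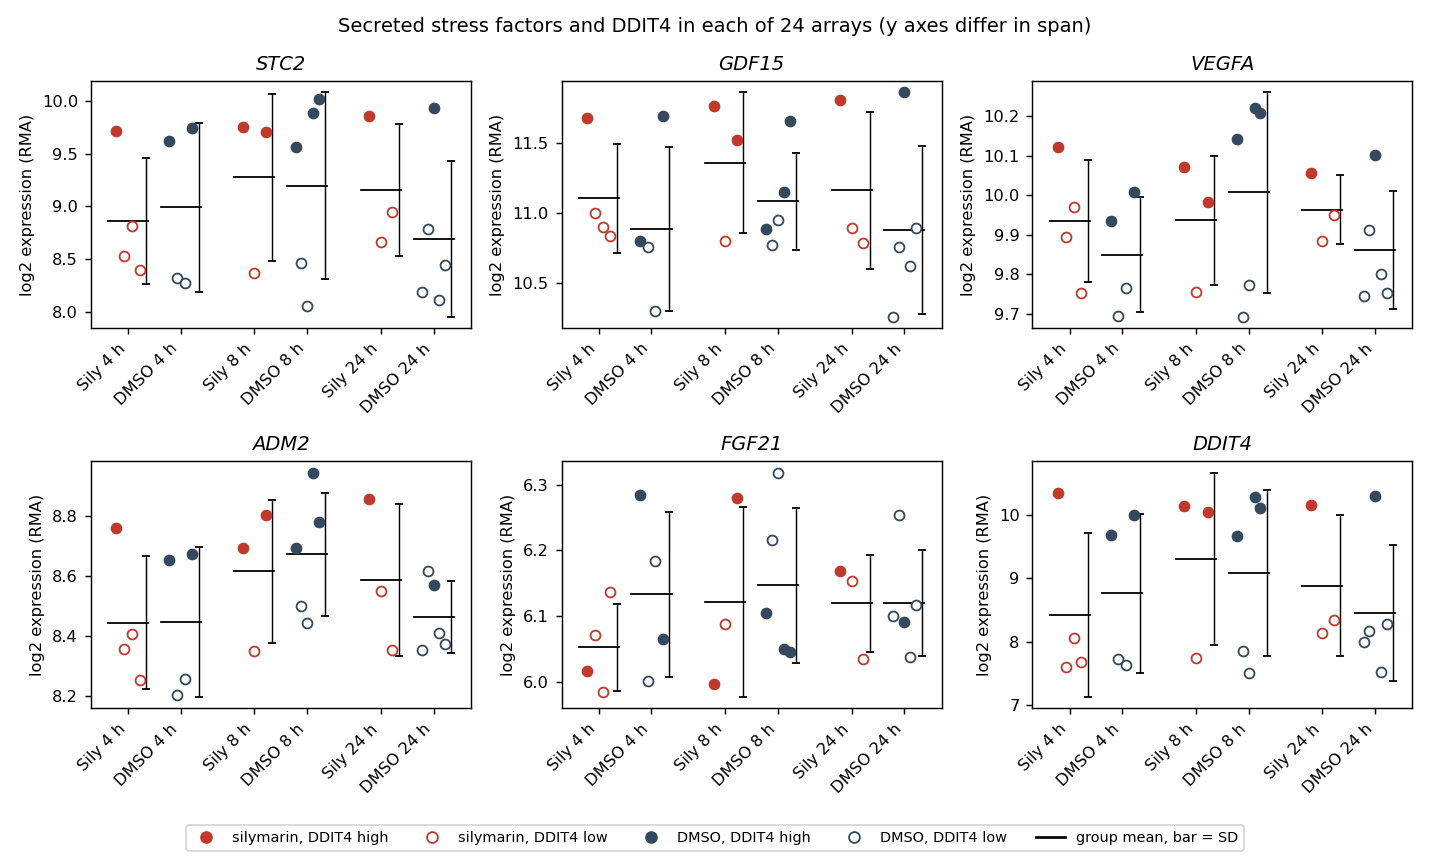
Log2 expression of the 5 members and of DDIT4 in each array, grouped by label with silymarin left of DMSO at 4, 8 and 24 h (filled points are the 10 arrays with DDIT4 of at least 9.67, lines are group means and bars are SD). STC2 and VEGFA split with DDIT4 in every group. GDF15 splits in every group except DMSO at 8 h and ADM2 in every group except DMSO at 24 h, and FGF21 stays between 5.99 and 6.32. In DMSO at 4 h the GDF15 split is narrow, 10.80 against 10.76. When groups are pooled, VEGFA, GDF15 and ADM2 overlap. How many of all genes split this way was not counted.

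DDIT3 and ASNS themselves did not pass at any time. DDIT3, the proapoptotic transcription factor, differed by 0.05 (SE 0.38) at 4 h, 0.23 (SE 0.39) at 8 h and 0.06 (SE 0.39) at 24 h. ASNS differed by -0.24 (SE 0.44), -0.07 (SE 0.46) and 0.38 (SE 0.46) at the same times, and limma's adjusted p was at least 0.992 for both genes. An alternative added after seeing the data left out the 14 low-DDIT4 arrays. DDIT3 then differed by 0.78 (SE 0.31) at 4 h, with 1 silymarin array against 2 DMSO arrays. ASNS differed by -0.45 (SE 0.17) at 8 h, with 2 silymarin arrays against 3 DMSO arrays. These were the largest moves without a change of sign in that setting, and neither passed. The single silymarin array at 4 h is assumed to vary like the other groups.

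**Figure D3:**
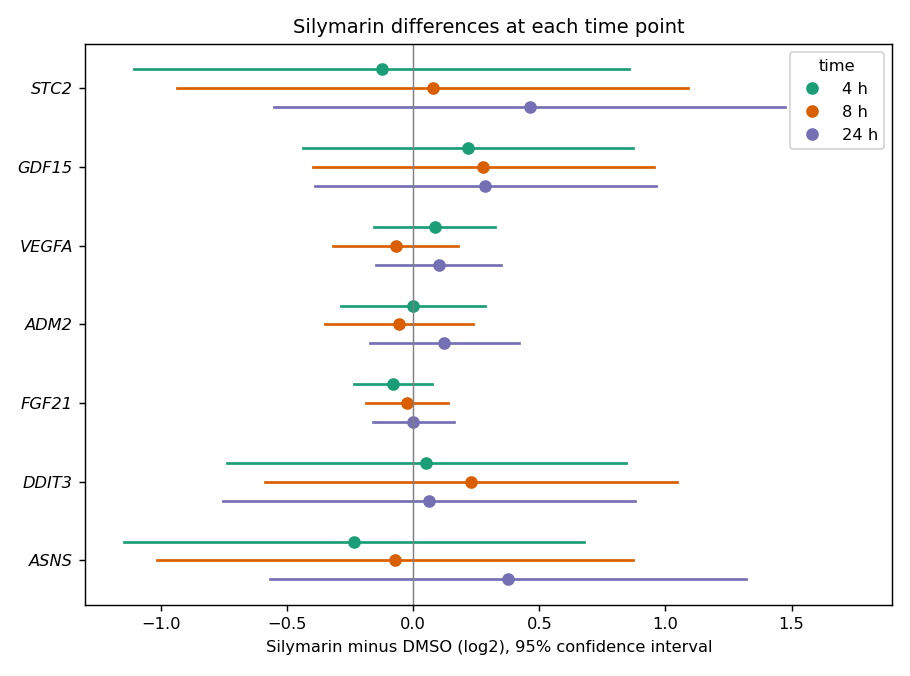
Silymarin minus DMSO on the log2 scale for the members, DDIT3 and ASNS at 4, 8 and 24 h, with 95% confidence intervals from limma. Every interval includes 0, the intervals of STC2, DDIT3 and ASNS are the widest, and those of FGF21 are the narrowest.

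The time course asked whether a silymarin effect changed with time and whether DMSO cultures drifted. limma's F-test of the treatment by time interaction called 0% of genes and 2.48% at an unadjusted p under 0.05, and the members had adjusted p of at least 0.999. Over the DMSO arrays, 0% of genes were called and 6.21% had an unadjusted p under 0.05. ADM2 had the lowest adjusted p of the members for the DMSO time course, 0.749, with DMSO means of 8.45 ± 0.25 (SD, n = 4) at 4 h, 8.67 ± 0.21 (SD, n = 5) at 8 h and 8.46 ± 0.12 (SD, n = 5) at 24 h. For any difference among the 6 groups, 0% of genes were called and 7.2% had an unadjusted p under 0.05. The members' adjusted p lay between 0.786 for ADM2 and 0.954 for FGF21 in that test.

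Across arrays, 4 of the 5 members took most of their high values in the arrays where DDIT3 and ASNS were high. How many of all genes did so was not counted, so the counts below describe the members only. The 10 arrays highest in DDIT4 were also the 10 highest in DDIT3, in ASNS and in STC2. Sharing high arrays with DDIT3 and with ASNS is therefore the same observation. STC2 lay between 9.57 and 10.01 in these 10 arrays and between 8.06 and 8.95 in the other 14. Of the 10 arrays highest in VEGFA, 9 were among these 10, and the same count was 9 for ADM2, 8 for GDF15 and 3 for FGF21. VEGFA lay between 9.93 and 10.22 in the high-DDIT4 arrays and between 9.69 and 9.97 in the others. ADM2 lay between 8.57 and 8.95 in the high arrays and between 8.20 and 8.62 in the others. GDF15 lay between 10.80 and 11.86 in the high arrays and between 10.26 and 11 in the others. The ranges of VEGFA, ADM2 and GDF15 thus overlapped. FGF21 lay between 5.997 and 6.28 in the high arrays and between 5.99 and 6.32 in the others, so the ranges were nearly the same. Of the 4 members whose upstream sequence was searched, FGF21 holds the motif match, and the match alone says nothing about binding in these cells. A relation of the match to the levels was not tested.

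Within the 10 high-DDIT4 arrays, GDF15 took values in separate ranges. Its level was 11.15 or lower in 3 of them, and 11.52 or higher in the other 7. The 3 were DMSO replicate 1 at 4 h with 10.80, and DMSO replicates 1 and 4 at 8 h with 10.88 and 11.15. ASNS in the same 3 arrays was 11.15, 11.04 and 11.26, among its 4 highest values. DDIT3 was 9.62, 9.79 and 10.17 there, 3 of its 4 lowest values among the high arrays. STC2 was 9.62, 9.57 and 9.89 in the 3 arrays, of which the first and second are its lowest values among the high arrays.

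**Figure D4:**
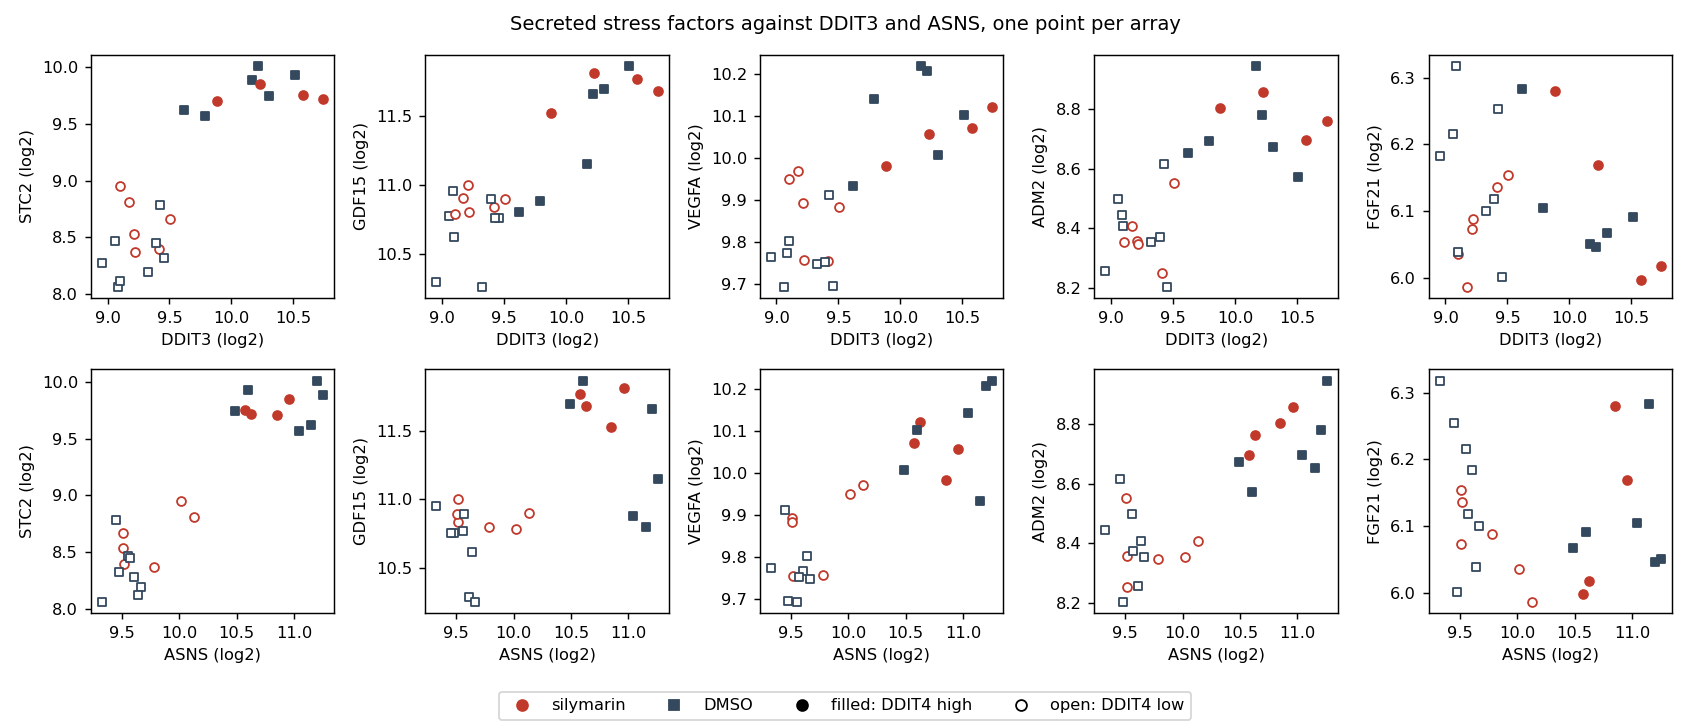
Each member (vertical) against DDIT3 (upper row) and ASNS (lower row), all on the log2 scale, with 1 point per array, circles for silymarin, squares for DMSO and filled points for the 10 arrays with high DDIT4. STC2 forms separate clouds, and FGF21 shows no step between open and filled points. Among the filled points GDF15 had r = -0.64 with ASNS, which spans its separate ranges and did not pass (adjusted permutation p = 0.28).

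Because the arrays form clusters, no correlation was computed over all 24, and each was computed within a cluster. Within the 10 high-DDIT4 arrays GDF15 had Pearson r = 0.80 with DDIT3 (permutation p = 0.00673) and Spearman rho = 0.81 (permutation p = 0.00754). Adjusted over all genes these permutation p-values were 0.207 and 0.159, so the relation did not pass. At an unadjusted Pearson p under 0.05, 15.9% of all genes were related to DDIT3 in these arrays, and 0% were called after adjustment. Without the 2 arrays farthest from the median of DDIT3, r was 0.75 (n = 8, exact permutation p = 0.0376). With ASNS, GDF15 had r = -0.64 (permutation p = 0.0532) and rho = -0.66 (permutation p = 0.0429) in the same arrays, and adjusted permutation p-values of 0.28 and 0.30. Without the 2 arrays farthest from the median of ASNS, r was -0.60 (n = 8, exact permutation p = 0.1406). Both relations span the separate GDF15 ranges of the high arrays, and r within a range was not computed. In the 14 low-DDIT4 arrays GDF15 had r = 0.25 with DDIT3 and -0.07 with ASNS (permutation p = 0.387 and 0.83). At an unadjusted Pearson p under 0.05, 6.41% of genes were related to DDIT3 in the low arrays.

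The largest correlations of FGF21 were negative, but sign and size differed between the clusters. In the high-DDIT4 arrays r with DDIT3 was -0.77 (permutation p = 0.0102, adjusted 0.218) and rho was -0.73 (permutation p = 0.0207, adjusted 0.206). Without the 2 arrays farthest from the median of DDIT3, r was -0.60 (n = 8, exact permutation p = 0.1148). In the 14 low arrays FGF21 had r = -0.66 with ASNS (permutation p = 0.0104, adjusted 0.333) and rho = -0.59 (permutation p = 0.0312, adjusted 0.649), and r = -0.54 without the 2 arrays farthest from the median (permutation p = 0.0712). The other r values were 0.31 with ASNS in the high arrays (permutation p = 0.369) and -0.10 with DDIT3 in the low arrays (permutation p = 0.724). All these correlations rest on differences of about 0.3 on the log2 scale in a dim gene.

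STC2, VEGFA and ADM2 showed no relation to DDIT3 or ASNS within clusters that passed. In the high arrays STC2 had r = 0.46 with DDIT3 and 0.11 with ASNS (permutation p = 0.182 and 0.753). In the low arrays STC2 had r = 0.53 with ASNS (permutation p = 0.0516) and rho = 0.18 (permutation p = 0.545). Without silymarin replicate 3 at 4 h and replicate 3 at 24 h, the 2 arrays with ASNS over 10, r was -0.12 (permutation p = 0.7045), so the value rests on those arrays. The same held for VEGFA, with r = 0.51 with ASNS in the low arrays (permutation p = 0.0585), rho = 0.16 and r = -0.24 without them. ADM2 had r = 0.53 with ASNS in the high arrays (permutation p = 0.115) and 0.28 without the 2 farthest arrays. Over the 20 relations computed, the adjusted Pearson p lay between 0.207 and 0.999. At an unadjusted Pearson p under 0.05, 18.1% of genes were related to ASNS in the high arrays and 12.1% in the low arrays, and 0.093% and 0% were called after adjustment.

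Genes most like each member were ranked by the lower of the Pearson r values in the high arrays (n = 10) and the low arrays (n = 14), over 14463 genes with a mean of at least 6. These values are descriptions, the arrays share the same clusters and normalization, and no test was made. STC2 was most like MTHFD2, a mitochondrial enzyme of one-carbon metabolism, with r = 0.89 in the high and 0.81 in the low arrays. CHAC1, a glutathione-degrading enzyme raised by ATF4, stood in place 5 with r = 0.74 and 0.84, after FNDC3B, RIOX2 and the zinc transporter SLC39A14. GDF15 was most like THBS1, the matrix protein thrombospondin 1, with r = 0.92 and 0.95. It was followed by the transcription factor ETS2, the focal adhesion protein ZYX, the macrophage growth factor CSF1 and the adhesion molecule ICAM1, with r of at least 0.83 in both clusters. None of these 5 genes is in the list of ATF4 targets used here. That list holds 37 of the 18274 genes measured, so nearly all genes are absent from it. VEGFA was most like EIF2S2, the beta subunit of eIF2, with r = 0.91 and 0.80. For FGF21 the leading genes were LINC00173 and WNT9A, and for ADM2 they were XG and C19orf73, with r between 0.73 and 0.90.

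Among the members themselves, VEGFA and STC2 were the closest pair. Their r was 0.54 in the high and 0.76 in the low arrays. STC2 and GDF15 had r = 0.60 and 0.37, and FGF21 and VEGFA had r = -0.70 and -0.22. These are also descriptions, with no test.

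Of the receptors and partners of the 5 factors, 16 were measured and none passed at any time, against 0% of all genes. Their median differences were 0.03, -0.06 and 0.04 at 4, 8 and 24 h, beside -0.01, -0.02 and 0.01 over all genes. KLB, the FGF21 co-receptor, lay between 10.39 and 11.04, and FGFR4, the main FGF receptor of hepatocytes, between 10.74 and 10.99. GFRAL, the GDF15 receptor of the hindbrain, had values between 3.27 and 3.83, under the limit for dim genes, as did the VEGFA receptors FLT1 and KDR and the ADM2 receptor CALCRL. NRP1, a VEGFA co-receptor, differed by 0.25, -0.35 and 0.03 at the 3 times and lay between 9.17 and 9.64 in the high-DDIT4 arrays and between 9.18 and 10.14 in the others. PAPPA, the protease that STC2 restrains, differed by 0.36 at 4 h, -0.15 at 8 h and 0.05 at 24 h.

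Among 14 measured relatives of the factors, INHBE had the widest range over the arrays. INHBE, an activin subunit secreted by hepatocytes, ranged over 1.93 on the log2 scale, from 7.77 to 8.98 in the high-DDIT4 arrays and from 7.05 to 8.04 in the others. Its silymarin difference was 0.21, -0.45 and 0.35 at 4, 8 and 24 h and did not pass. None of the 14 measured relatives passed at any time. FGF19, the intestinal bile acid hormone, was between 7.53 and 8.58, ADM between 8.38 and 8.77 and STC1 between 5.29 and 5.64. The ranges of ADM and STC1, relatives of ADM2 and STC2, were 0.38 and 0.35.

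Lists of genes for the pathways known to raise these factors were set beside them, by counts and medians alone. Over all genes, 47.5%, 42% and 56% lay above 0 at 4, 8 and 24 h, with medians of -0.01, -0.02 and 0.01. Of 37 measured ATF4 targets, 0 passed at any time, 12, 19 and 33 lay above 0 at 4, 8 and 24 h, and the medians were -0.05, 0.01 and 0.17. Their median range over the 24 arrays was 1.01, against 0.50 over all genes, with CHAC1 from 8.13 to 11.22 and the cysteine-making enzyme CTH from 7.96 to 10.43. At 24 h the amino acid transporter SLC7A5 differed by 0.34 (SE 0.16) and the glycine transporter SLC6A9 by 0.53 (SE 0.26). High-DDIT4 arrays were 1 of 4 in silymarin against 2 of 4 in DMSO at 4 h. They were 2 of 3 against 3 of 5 at 8 h and 1 of 3 against 1 of 5 at 24 h. The part of this unequal share in the counts of the ATF4 targets and of the lists below was not tested. Genes of a list can vary together, so the counts are not numbers of independent results. Chaperone and secretory genes raised by XBP1 and ATF6 had a median range of 0.48. Of the 21, all measured, 18, 21 and 19 lay above 0 at 4, 8 and 24 h, with medians of 0.02, 0.13 and 0.06. PDIA6, a protein disulfide isomerase, differed by 0.18 (SE 0.07) at 8 h. Hypoxia genes, which HIF raises together with VEGFA, had a median range of 0.52 and medians of -0.02, -0.02 and 0.01 over 22 genes, of which 10, 9 and 14 lay above 0. The widest were LOX, a collagen cross-linking enzyme, from 8.74 to 10.79, and VLDLR, a lipoprotein receptor that is also in the ATF4 list, from 7.32 to 9.17. HK2, a hexokinase, differed by 0.31 (SE 0.10) at 24 h. p53 targets, a pathway that can raise GDF15, had a median range of 0.52 and medians of -0.02, 0.02 and 0.02 over 18 genes, of which 7, 11 and 10 lay above 0. PPAR alpha targets, a fasting pathway that can raise FGF21, had medians of 0.03, 0.06 and -0.08 over 13 genes, of which 8, 10 and 3 lay above 0, with PDK4 differing by -0.30 (SE 0.11) at 24 h. None of the genes named from these lists passed, with limma's adjusted p of at least 0.991.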

How the data were processed

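Each sample's RNA was read on 1 array. Values are on a log2 scale, as deposited; the submitters' processing notes name RMA and oligo. RMA includes background correction, quantile normalization across arrays and a summary over probes, and differences between dim genes are compressed by it. The genome build behind the probe sets is not given in the sources used here. Of 28869 probe sets, 19302 had 1 gene symbol in the platform annotation, 1729 had several and 7838 were not listed. Where a gene had several probe sets, the one with the highest mean was kept, leaving 18274 genes.

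limma 3.58.1 in R 4.3.3 was fitted to 6 group means over all 24 arrays, with Benjamini-Hochberg adjustment over all genes and an adjusted p threshold of 0.05. Tests were two-sided. Correlations used 100000 permutations, or all 40320 orders for 8 arrays, adjusted over all genes. Arrays were split at the largest gap in DDIT4 (1.32). The number of arrays limits precision. Scripts were tested on simulated data. Figures used matplotlib 3.10.9. The named genes were the members, DDIT3, ASNS and DDIT4, the receptors and relatives, of each other list the 4 genes with the smallest p at each time or the widest range, and the 5 genes most like each member. The members and lists were chosen with earlier results of these data known. Alternatives covered re-centring, quantile normalization, dim genes, probe set means, limma settings, array weights, the groups fitted, a replicate block and leaving out each array.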

Additional observations from a re-analysis of the deposited data

Results flagged for a closer look

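In 32 checks of 8 genes in 4 groups of 4 or 5 arrays, 5 values stood far from their group. Chance alone gives about 1 in 20 for independent checks, and these are not independent: all 5 fall in 2 arrays, each the only high-DDIT4 array of its group, so they restate the split of the arrays. In silymarin at 4 h, replicate 1 had DDIT3 at 10.74, with the next array at 9.42, and DDIT4 at 10.34, with the next at 8.05. In DMSO at 24 h, replicate 3 had DDIT3 at 10.51 (next 9.42), ASNS at 10.60 (next 9.66) and DDIT4 at 10.30 (next 8.28). None of the 5 secreted factors was marked in this check. STC2 was 9.72 and 9.93 in these 2 arrays, each the highest of its group, and GDF15 was 11.68 and 11.86, also each the highest of its group.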

How the results depend on the processing

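No member, and neither DDIT3 nor ASNS, passed in any comparison under any alternative run, and the smallest adjusted p was 0.714 for a silymarin difference, 0.539 for an F-test and 0.0994 for a correlation. The count of genes called was 0 in all alternatives except repeated quantile normalization at 24 h, which called 1. Each member has 1 probe set, so averaging probe sets left its values as they were, and FGF21 had no value where dim genes were left out. With 3 to 5 arrays a group, the sign of a small difference depends on single arrays.

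Array weights gave differences of -0.12 for DDIT3 at 4 h, -0.41 for STC2 and -0.089 for DDIT3 at 8 h, and 0.019 for FGF21 at 24 h, of opposite sign to the values reported. The main fit did not pair arrays by replicate number, and the labels do not say what the numbers mark. Of 10 same-numbered pairs, 4 had a correlation of deviations over 0.1 (range -0.14 to 0.43). The DDIT4 split is part of these deviations, so they cannot settle whether the numbers mark pairs. The replicate block turned the sign of ASNS at 8 h to 0.043 and called 0 genes in each comparison. Without the 10 high-DDIT4 arrays, chosen after seeing the data, signs turned for STC2 (0.28), ADM2 (0.11) and ASNS (0.18) at 4 h, GDF15 (-0.064), VEGFA (0.023) and ASNS (0.34) at 8 h, and DDIT3 (-0.0048) at 24 h. Without the 14 low-DDIT4 arrays they turned for STC2 (0.035) and ADM2 (0.10) at 4 h, FGF21 (0.072) and STC2 (-0.092) at 8 h, and FGF21 (0.078), GDF15 (-0.053), VEGFA (-0.045), STC2 (-0.077) and DDIT3 (-0.28) at 24 h. The largest moves without a change of sign in that setting were DDIT3 at 4 h (0.78) and ASNS at 8 h (-0.45). In both settings some groups keep 1 array, assumed to vary like the other groups. The causes were not tested.

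Leaving out each array in turn gave ranges that crossed 0 for 15 of 21 differences. At 4 h they were -0.41 to 0.13 for STC2, -0.11 to 0.073 for ADM2, -0.32 to 0.29 for DDIT3 and -0.47 to 0.088 for ASNS. At 8 h they were -0.21 to 0.53 for STC2, -0.15 to 0.020 for VEGFA, -0.15 to 0.077 for ADM2, -0.10 to 0.037 for FGF21, -0.11 to 0.57 for DDIT3 and -0.36 to 0.24 for ASNS. At 24 h they were -0.038 to 0.53 for GDF15, -0.012 to 0.24 for ADM2, -0.025 to 0.042 for FGF21, -0.24 to 0.32 for DDIT3 and -0.022 to 0.70 for ASNS. Ranges that did not cross 0 were 0.020 to 0.49 for GDF15 at 4 h, 0.077 to 0.56 for GDF15 at 8 h, 0.022 to 0.15 and 0.054 to 0.16 for VEGFA at 4 and 24 h, and -0.12 to -0.031 for FGF21 at 4 h. STC2 at 24 h ranged from 0.11 without silymarin replicate 1 to 0.77 without DMSO replicate 3.

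Of the correlations, 11 of 100 alternative values changed sign. Without the 2 arrays farthest from the median on the x axis, r with DDIT3 was -0.018 for VEGFA in the high arrays, and -0.14 for GDF15 and -0.30 for ADM2 in the low arrays. In the same setting r with ASNS was -0.010 for VEGFA and -0.048 for STC2 in the high arrays, and -0.24 for VEGFA and -0.12 for STC2 in the low arrays. With group means subtracted, r with DDIT3 was 0.28 for ADM2 in the high arrays and 0.28 for VEGFA in the low arrays, and r with ASNS was 0.44 for ADM2 in the low arrays. Re-centred arrays gave ADM2 r = -0.051 with DDIT3 in the low arrays.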
